A study of Mus musculus with 4 samples.

Results

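Regions of open chromatin that ranked higher in both Shox2 mutant libraries than in both control libraries are described here. Open chromatin was mapped by ATAC-seq, which uses a transposase to cut accessible DNA and tag it for sequencing. The cells were mesenchymal cells sorted by green fluorescence from the palates of mouse embryos at E14.5. Controls were Shox2Cre/+;Nkx2.5F/F;R26RmTmG and mutants Shox2Cre/-;Nkx2.5F/F;R26RmTmG, with 2 libraries each and 50000 cells pooled per group. Controls therefore carried Cre at 1 Shox2 allele and an intact second allele, while mutants carried Cre and a null allele. Every group also carried a floxed Nkx2-5 allele on both chromosomes, which Cre can delete, and a membrane reporter that turns green where Cre has acted, so that no group was wild type. The titles give the controls as WT. Whether the 2 libraries of a genotype came from separate pools of embryos is not stated, so the spread between them may be technical.

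Peaks of the 4 lists that shared at least 1 bp were merged into 39843 regions, and 18904 of these held a peak in every library. Each peak was given a percentile, its rank by the authors' score within its own list (100 is the strongest peak), and a region took the percentile of its highest peak. A region was a member when the lower of the 2 mutant percentiles exceeded the higher of the 2 control percentiles by at least 10 points. This difference is called the gap. There were 797 members among the 18904 shared regions, or 4.22%. Members were thus chosen by these percentiles, so their levels are a description and carry no test.

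Shox2 encodes a homeodomain protein made in the front part of the palate, where the palatal shelves need it to grow. It also acts in the sinoatrial node of the heart by holding back Nkx2-5, another homeobox factor. A transcription factor can open chromatin, by recruiting remodelling enzymes, or keep it closed, by recruiting repressors. Accessible sites fall into promoters, which lie at gene starts and are open in most cells, and distal elements such as enhancers, which differ more between cell types and can act over long distances.

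Sequences of 6 promoters under members are shown as examples, picked after their values were seen, because they lay inside a peak of all 4 libraries. They come from RefSeq on GRCm38.p6, the assembly also called mm10. Each line is the 250 bases before the start, 5′ to 3′ on the strand of the gene. Capitals mark 4 motifs on either strand. One is the GC box, GGGCGG, where SP factors bind. Another is the CCAAT box, a site of NF-Y. The AP-1 motif is TGACTCA, and the core that paired homeodomains bind is TAATTA. Zfp804a, a zinc finger gene, and Rora, which encodes a nuclear receptor, had the 2 largest gaps in rank among the 6. Smad9 and Id2 encode a signal transducer and a target of BMP signalling. Slit2 encodes an axon guidance ligand and Mmp14 a matrix-cleaving protease.
Zfp804a: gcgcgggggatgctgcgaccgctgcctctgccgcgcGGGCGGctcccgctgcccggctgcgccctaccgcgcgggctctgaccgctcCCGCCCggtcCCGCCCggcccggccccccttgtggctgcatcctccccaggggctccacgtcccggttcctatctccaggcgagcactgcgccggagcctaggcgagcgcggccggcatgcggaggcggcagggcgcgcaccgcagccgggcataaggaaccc
Rora: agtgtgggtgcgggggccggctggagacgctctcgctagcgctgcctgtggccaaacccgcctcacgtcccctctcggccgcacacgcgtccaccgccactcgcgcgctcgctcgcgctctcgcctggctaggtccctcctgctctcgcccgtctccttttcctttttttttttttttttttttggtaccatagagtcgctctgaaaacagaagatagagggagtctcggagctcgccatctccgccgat
Smad9: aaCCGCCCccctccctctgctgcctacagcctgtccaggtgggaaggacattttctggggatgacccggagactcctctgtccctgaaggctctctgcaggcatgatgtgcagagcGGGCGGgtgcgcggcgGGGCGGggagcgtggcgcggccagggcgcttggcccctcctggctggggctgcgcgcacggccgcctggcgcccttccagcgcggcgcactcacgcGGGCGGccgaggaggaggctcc
Id2: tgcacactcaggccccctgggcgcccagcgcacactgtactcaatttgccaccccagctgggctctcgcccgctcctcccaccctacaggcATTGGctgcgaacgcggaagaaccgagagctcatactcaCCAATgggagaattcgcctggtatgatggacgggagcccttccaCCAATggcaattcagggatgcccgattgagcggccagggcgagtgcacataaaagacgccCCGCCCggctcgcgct
Slit2: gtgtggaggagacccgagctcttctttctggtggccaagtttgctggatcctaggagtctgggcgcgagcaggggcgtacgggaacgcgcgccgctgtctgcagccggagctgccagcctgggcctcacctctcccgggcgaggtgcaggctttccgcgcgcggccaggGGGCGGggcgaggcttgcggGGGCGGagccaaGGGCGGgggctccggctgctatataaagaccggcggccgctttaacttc
Mmp14: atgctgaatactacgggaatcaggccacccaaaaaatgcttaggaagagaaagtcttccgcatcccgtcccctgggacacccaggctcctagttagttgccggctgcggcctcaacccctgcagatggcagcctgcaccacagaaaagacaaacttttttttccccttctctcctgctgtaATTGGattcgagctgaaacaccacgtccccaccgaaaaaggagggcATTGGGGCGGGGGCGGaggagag
The positions were chr2:82053408-82053657 (plus strand) for Zfp804a and chr9:68653536-68653785 (plus) for Rora. They were chr3:54755332-54755581 (plus) for Smad9 and chr12:25096093-25096342 (minus) for Id2. They were chr5:47982905-47983154 (plus) for Slit2 and chr14:54431348-54431597 (plus) for Mmp14. Base composition differed among them. GC content was 78.4% at Zfp804a and 55.2% at Mmp14. GC boxes were found in 5 of these sequences, with none at Rora, and the AP-1 and homeodomain motifs in 0 of them.

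The number of members was not the largest that a split of the 4 libraries gave. Besides genotype, the libraries can be split by replicate number or crosswise. Regions with control 1 and mutant 2 above control 2 and mutant 1 numbered 937 (4.96%), and those with control 1 and mutant 1 above the rest 451 (2.39%). Regions with both controls above both mutants numbered 89 (0.471%), and the remaining classes held 77 (0.407%) and 39 (0.206%). Genotype thus ranked in the middle of 3 splits by its larger class. An exact permutation test over the 3 pairings cannot go below p = 0.333, and no test is read from the counts that chose the members. The members were 2.12 times the mean of the 4 classes outside genotype. In each split the larger class was the one with control 2 among the lower libraries. The list of control 2 was the shortest, with 22959 peaks on the chromosomes used against 29217 to 31821 in the others. Shared regions made up 83.0% of its peaks and 59.9% to 65.3% of the other lists. Their median percentile was 58.8 there and 67.6 to 70.2 elsewhere. List length, depth and accessibility of that library cannot be told apart here. Leaving out a library lowers the number that must agree. The count was 5777 of 19622 regions without control 1 and 1620 of 22258 without control 2. It was 2496 of 19814 without mutant 1 and 1561 of 19468 without mutant 2.

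Ranking the 18904 shared regions only against each other puts the 4 libraries on 1 scale, and the resulting value is called the common percentile. On it, 435 regions (2.3%) lay higher in both mutants and 415 (2.2%) higher in both controls. The classes by replicate number held 331 (1.75%) and 339 (1.79%) regions, and the crossed classes 284 (1.5%) and 287 (1.52%). Genotype then gave the most regions, 850 over both directions against 670 and 571, from the same contrast that chose the members. Of the 797 members, 300 (37.6%) passed the margin of 10 on the common scale too, which is 69.0% of the 435 regions. A further 388 members kept a positive common gap below 10, and 109 had a common gap at or below 0, so that the genotypes overlapped there. The 2 scales are given side by side for the members named below.

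**Figure D1:**
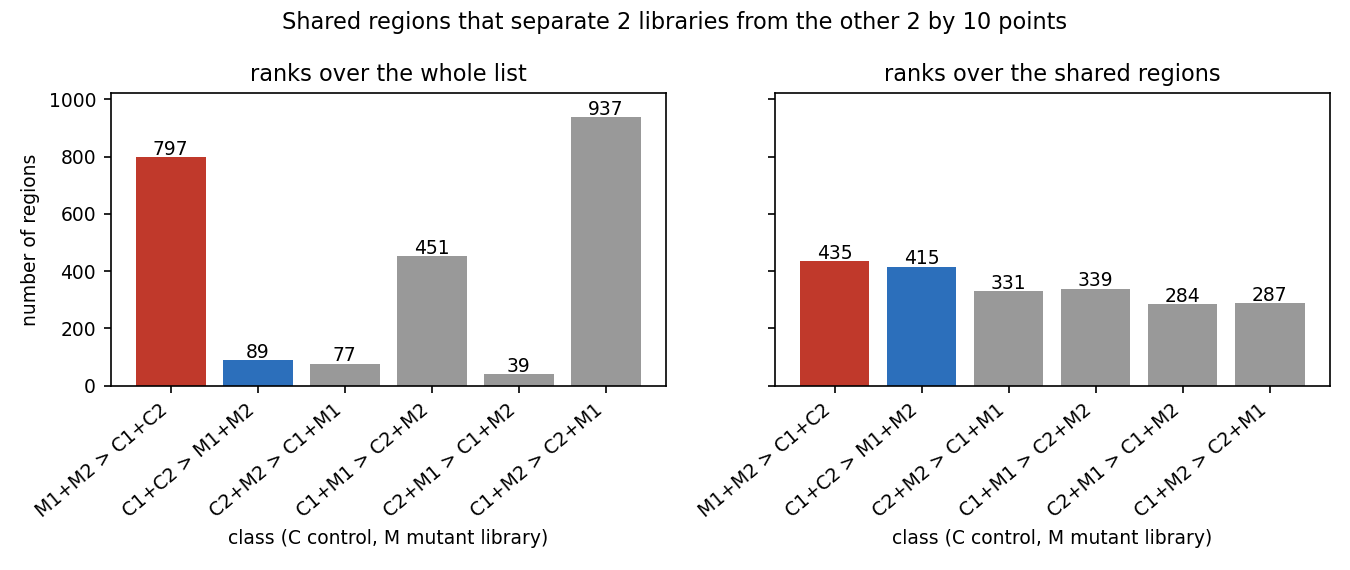
Number of shared regions in which 2 libraries exceeded the other 2 by at least 10 percentile points, for the 6 classes of the 3 splits, with ranks over whole lists (left) and over shared regions (right). The mutants-higher class (red) holds 797 regions on the left and 435 on the right, and the controls-higher class (blue) 89 and 415.

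Agreement can also be read in pairs of a mutant and a control, with the same 10 points and the same scores. The 435 regions higher in both mutants on the common scale agree in these pairs by definition. The shares below are therefore not independent of the rule that chose the members. On the common scale mutant 1 exceeded control 1 by at least 10 points in 2801 regions. Mutant 2 exceeded control 2 by as much in 766 of them (27.3%) and lay as far below it in 541 (19.3%), against 17.2% and 17.3% of all shared regions. In crossed pairs, mutant 2 exceeded control 1 by at least 10 points in 2866 regions. Mutant 1 exceeded control 2 by as much in 728 of them (25.4%) and lay as far below it in 589 (20.6%), against 17.02% and 17.01% of all shared regions. For comparison within genotypes, control 2 exceeded control 1 in 3083 regions. Mutant 2 exceeded mutant 1 in 615 of them (19.9%) and lay below in 547 (17.7%), against 14.55% and 14.47% of all shared regions. In the 3049 regions with control 1 above control 2, these shares were 18.2% and 20.1%. The regions are not independent and all these differences rest on the same 4 libraries, so these shares are descriptions.

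By rank over the whole lists, members were peaks of middle strength, as were the other classes of regions that differed by 10 points on that scale. Their mean percentile over the 4 libraries had a median of 42.5 (quartiles 33.3 and 52.9), against 65.6 for all shared regions, and 94.4% of members lay between 20 and 70 against 54.7% of shared regions. The other 5 classes had medians of 28.5 to 43.0. The median percentile of members was 35.0 and 26.5 (control 1 and 2) against 54.7 and 57.0 (mutant 1 and 2). On the common scale these medians were 9.64, 15.2, 31.4 and 29.6. Control 1 was therefore the lowest library on the common scale and control 2 on the list scale. The authors' fold enrichment, which comes from the same peaks, had a median over members of 6.05 and 6.02 (controls) against 7.11 and 7.28 (mutants). Over all shared regions it was 8.13 and 7.36 (controls) against 7.57 and 7.94 (mutants). Members thus stood below the typical shared region in every library, by less in the mutants. Fold enrichment was higher in both mutants than in both controls in 722 members (90.6%) and in 15.3% of all shared regions.

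**Figure D2:**
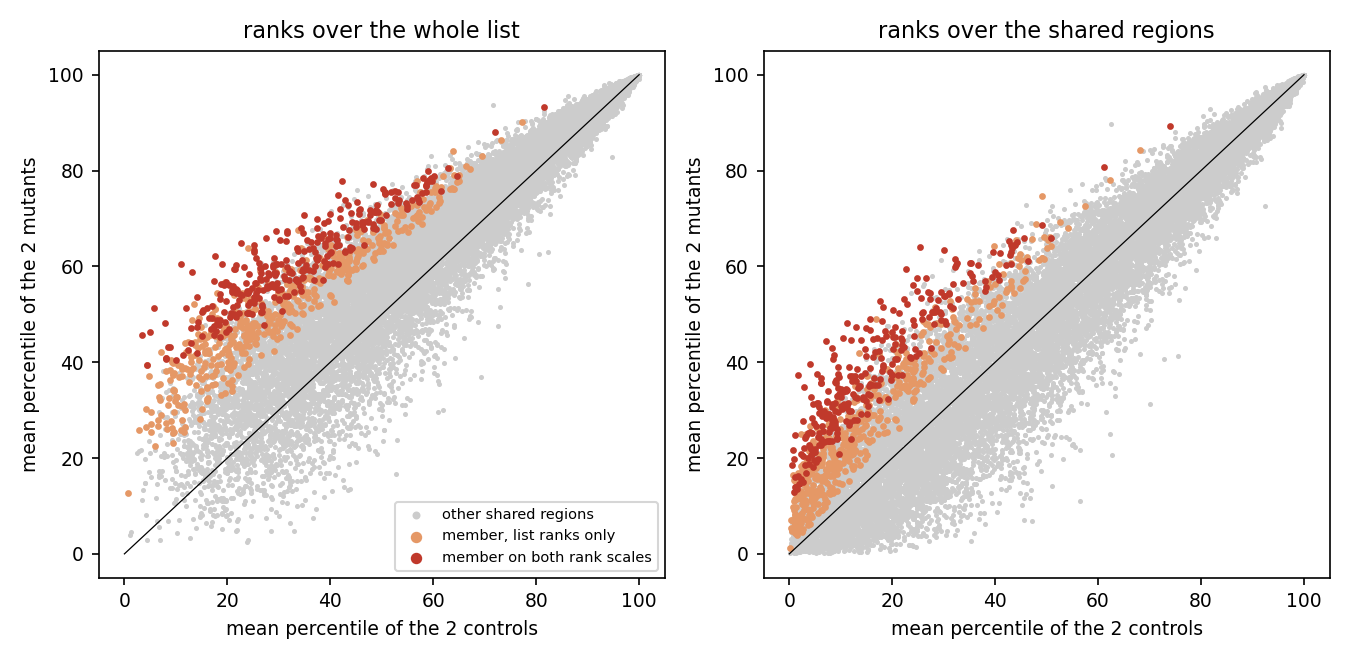
Mean percentile of the 2 mutants against the mean of the 2 controls for 18904 shared regions, with ranks over whole lists (left) and over shared regions (right); the line marks equality. The 797 members lie above the line on the left; the 300 in dark red pass the margin on both scales.

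The gap had a median of 13.8 over the members and an upper quartile of 17.4. It reached 20 in 122 members and 30 in 17. Replicates of a genotype differed by a median of 8.20 points between the controls and 4.25 between the mutants. The 4 peak summits of a member lay within 200 bp of each other in 633 members (79.4%), against 85.6% of shared regions, and 778 members held a single peak in each library. The median width of the merged region was 1040 bp, against 1164 bp over shared regions.

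The largest gap lay inside Fmn1, which encodes formin 1, an actin-nucleating protein of limb development (chromosome 2, 113707245 to 113708141). Its percentiles were 6.47 and 5.12 (controls) against 50.5 and 52.1 (mutants), a gap of 44.0. Peaks near the bottom of both control lists thus stood in the middle of both mutant lists, and the common gap was 21.7. The authors' fold enrichments there were 5.002 and 5.46 (controls) against 7.95 and 8.23 (mutants). Fmn1 held a second member (113465097 to 113466259), with percentiles of 27.2 and 2.90 against 45.8 and 55.3.

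Pard3b, a gene of a cell polarity protein, held the member with the largest common gap of all, 32.0 (chromosome 1, 62429656 to 62430357). Its percentiles were 26.6 and 8.73 (controls) against 62.4 and 62.0 (mutants). The mutants agreed closely while the controls differed. A region 74.1 kb from Kcnf1, a potassium channel gene (chromosome 12, 17097682 to 17098416), had percentiles of 16.2 and 10.2 (controls) against 61.0 and 56.8 (mutants).

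Other large gaps lay inside genes. Macrod2 (chromosome 2, 142361610 to 142362565) had percentiles of 25.6 and 25.7 (controls) against 62.8 and 60.8 (mutants). Cped1 (chromosome 6, 22189116 to 22190098) had 28.4 and 21.8 against 62.8 and 63.1. Both pairs of replicates lay close together there. Spag17, a gene of motile cilia (chromosome 3, 100034317 to 100035369), had 20.97 and 16.8 against 55.0 and 66.1. Tanc1 (chromosome 2, 59828667 to 59829927) had 26.6 and 16.4 against 57.3 and 61.7. Common gaps of these 4 ran from 20.6 to 27.5. Myoz2, a muscle sarcomere gene (chromosome 3, 123025515 to 123026367), had percentiles of 4.79 and 4.82 against 36.0 and 38.3, and its common gap of 8.69 missed the margin. A region 36.4 kb from Nell1, a gene of a secreted protein that promotes bone formation (chromosome 7, 50899105 to 50900314), had 9.57 and 7.26 against 45.0 and 41.6. Its common gap was 10.2.

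The other 6 of the 15 largest gaps lay over 100 kb from any protein-coding gene. The largest of these gaps was on chromosome 18 (26266383 to 26267301), 512.3 kb from Celf4, with percentiles of 3.55 and 3.17 (controls) against 45.6 and 45.7 (mutants). A region 146.0 kb from Tent5a (chromosome 9, 85173857 to 85174986) had 18.2 and 3.74 against 56.7 and 64.5, with a common gap of 31.8. The other 4 had gaps of 30.5 to 33.7 and lay 105.5 kb from Rchy1, 751.4 kb from Agtr1b, 168.5 kb from Sec61b and 469.0 kb from Lmo7. All 6 passed the margin on the common scale.

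**Figure D3:**
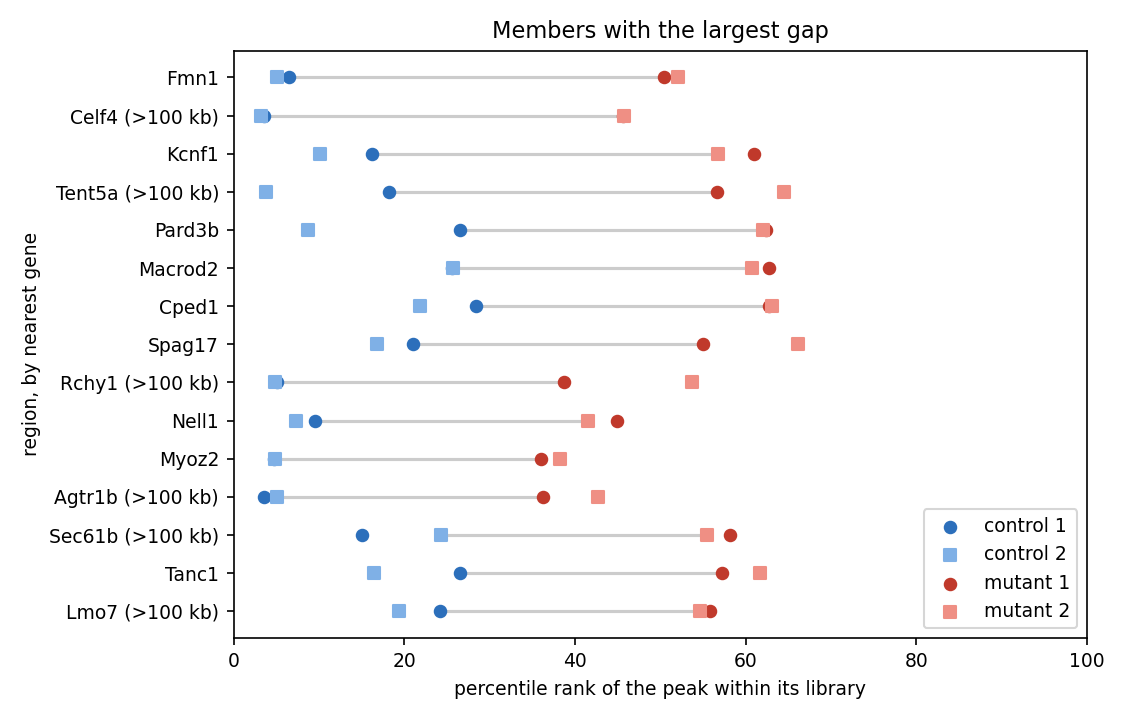
Percentile of the peak in each of the 4 libraries for the 15 members with the largest gap, named by the nearest protein-coding gene (those over 100 kb away are marked). Grey lines span the gap; both controls lie at or below 28.4 and both mutants at or above 36.0.

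Members lay far from genes more often than shared regions did. Of the 797 members, 168 (21.1%, 95% exact binomial interval 18.3 to 24.1) lay within 1 kb of a gene end, 276 (34.6%) inside a gene, 198 (24.8%) outside within 100 kb and 155 (19.4%) farther away. Over all shared regions these shares were 50.9%, 25.3%, 16.5% and 7.28%. Low shares near gene ends were not particular to members. The other 5 classes on the list scale had 19.1% to 32.5% near a gene end and 5.62% to 20.5% beyond 100 kb, where the highest was the class of 39 regions. Weaker peaks are distal more often, so strength was considered as well. Among the 3954 other shared regions with a mean percentile between the quartiles of the members, 28.7% lay near a gene end and 11.8% beyond 100 kb. The strength of the peaks therefore moved with most of the difference near gene ends and with less of that beyond 100 kb. The members were not cut to that range, so the match in strength is rough, here and below. The intervals cover counting over regions, not the spread between libraries.

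On the common scale, which ranks the same scores again, the mutants-higher class also took more regions beyond 100 kb than the others. There were 1377 shared regions beyond 100 kb. Of these, 87 (6.32%) lay higher in both mutants and 28 (2.03%) higher in both controls, while the 4 classes outside genotype took 1.89% to 2.47%. Members made up 69 of the 87, so the count is not independent of the choice of members. Within 1 kb of a gene end the order was the reverse, with 101 of 9625 regions (1.05%) higher in the mutants and 161 (1.67%) higher in the controls. The median common percentile of regions beyond 100 kb was 26.6 and 26.1 (controls) against 29.6 and 30.03 (mutants). With 4 different values, 1 of the 3 splits always shows no overlap, so this order is no test. The median difference beyond 100 kb, mutants minus controls, was 2.15 points, against 0.398 for the split by replicate number and −0.346 for the crossed split. In genes it was 0.00331 and near gene ends −0.140. With any 1 library left out and the ranks taken again, the mutants-higher share beyond 100 kb ran from 13.8% to 17.9% and the controls-higher share from 6.19% to 10.1%. Over all shared regions of the same 4 fits these shares were 6.93% to 9.01% and 6.80% to 9.07%. The mutants-higher share beyond 100 kb was thus above that of all regions in each fit, and the controls-higher share lay near it. These fits reuse the same libraries, and no other split was set beside them. Without control 1 the shares beyond 100 kb were 17.9% and 10.1%. The 155 members beyond 100 kb lay a median of 262.3 kb from a gene, and the farthest 1771 kb.

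**Figure D4:**
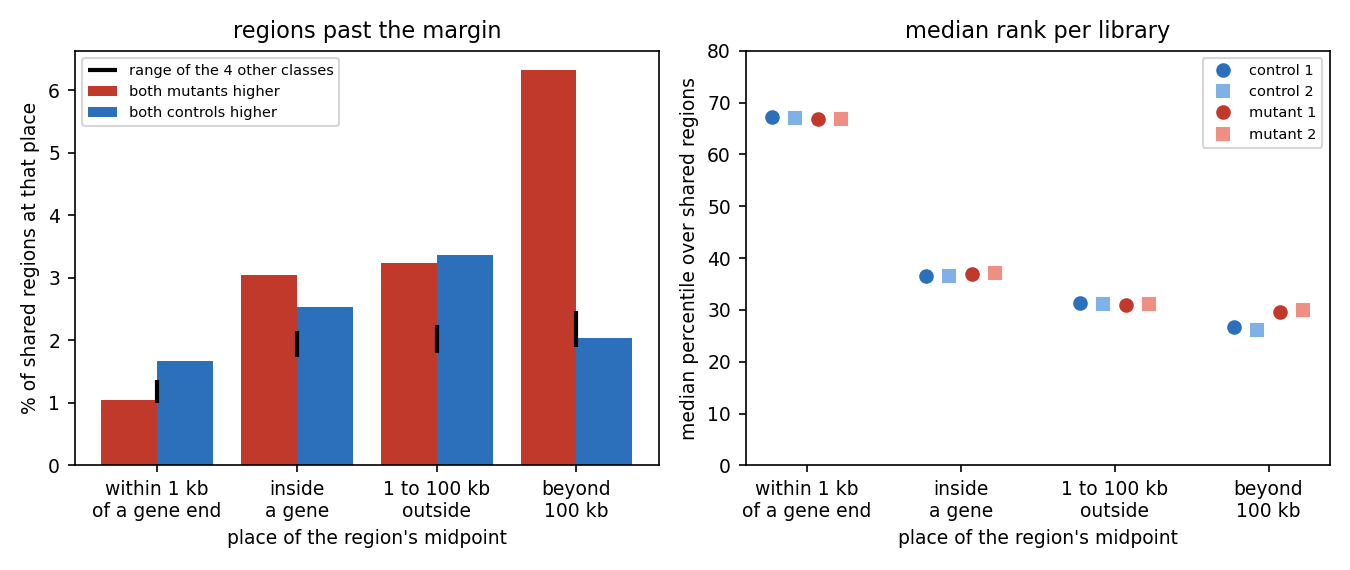
Left, share of shared regions at each place that passed the margin of 10 common percentile points with both mutants (red) or both controls (blue) higher; black bars span the 4 classes outside genotype. Right, median common percentile per library; beyond 100 kb the controls stand at 26.6 and 26.1 and the mutants at 29.6 and 30.03.

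Members inside genes lay in longer genes than shared regions inside genes did, and the other classes were not compared. The median length of the host gene was 190.3 kb for the 276 members, 112.9 kb for all shared regions inside genes and 136.3 kb for those of like strength that were not members. Genes over 500 kb held 59 of the 276 members (21.4%), against 11.4% and 12.9%. Among the 105 members inside genes that passed on both scales, these genes held 18 (17.1%), and the median length was 234.4 kb. Of the 608 genes with a member, 576 had 1, 30 had 2 and 2 had 3. Neighbouring members were under 10 kb apart in 5 cases, so few members were close neighbours. By chromosome the share of shared regions that were members ran from 2.25% on chromosome 19 to 5.62% on chromosome 3, with 5.61% on chromosome 16. For members that passed on both scales, chromosome 3, which carries Shox2, was at 2.08% (24 of 1156 regions), beside 300 of 18904 over all chromosomes. Only chromosome 1 was higher, at 2.54%, and chromosome 2 stood at 1.96%.

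Dlg2, a postsynaptic scaffold gene, and Trappc3l had 3 members each. The Dlg2 members were 3 of 13 shared regions, with gaps of 16.1, 15.4 and 11.6, and 0 of them passed on the common scale. Those at Trappc3l (chromosome 10) were all 3 of its shared regions, and 1 passed (34111813 to 34112790). Its percentiles there were 41.0 and 34.1 (controls) against 59.2 and 64.8 (mutants). The next genes were chosen after their values were seen, for having 2 members that both passed on the common scale. At Rora they were the promoter region shown above and one inside the gene (chromosome 9, 68942411 to 68943290), with 43.1 and 17.2 against 62.3 and 68.6. Others of this kind were Fmn1, Lin7c, Nav3, Nemp2 and Slain1.

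A promoter window, from 250 bases before to 50 after a RefSeq start, was overlapped by 165 members (20.7%) and by 49.1% of shared regions. It was overlapped by 28.0% of regions of like strength that were not members. CpG content of the 250 upstream bases is given as the observed number of CG pairs over that expected from the C and G content, and promoters at or above 0.6 are commonly called CpG-rich. The ratio had a median of 0.6002 over the 203 promoters under members, 0.763 over the 12485 under all shared regions and 0.668 over the 1410 under regions of like strength. CpG-rich promoters made up 50.2%, 73.4% and 59.4%. Promoters under members thus had the lowest CpG ratio of these 3 sets. All 32585 promoters of the table were lower still, with a median of 0.378 and 34.1% CpG-rich. The 64 promoters under members that passed on both scales had 0.611 and 53.1%.

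Motifs were searched in the same 250 bases on both strands. Of 13 motifs searched, 5 are given first, and no test was made of any. GGGCGG was in 56.7% of promoters under members, 63.2% under shared regions, 54.9% under regions of like strength and 32.9% of all 32585 promoters of the table. In the same order, CCAAT was in 33.0%, 36.1%, 26.7% and 34.0%. Both were thus less frequent under members than under all shared regions and more frequent than at like strength. Under the 64 promoters of members that passed on both scales, GGGCGG was in 56.25% and CCAAT in 28.1%, nearer to the shares at like strength. The ETS motif CCGGAAGT was in 1.97% (4 of 203 promoters under members), 6.15%, 4.47% and 2.90%. The E-box CANNTG, where basic helix-loop-helix factors bind, was in 66.5%, 54.7%, 59.5% and 66.3%. TAATTA was in 1.97%, 1.88%, 2.70% and 4.803%. Among the others, TGATNNAT (TALE homeobox type) was in 5.42%, 2.68%, 2.55% and 7.66%. TNAAGTG (Nkx2-5 type) was in 8.87%, 6.83%, 6.60% and 10.1%, and TGACTCA in 3.45%, 2.45%, 2.77% and 4.48%. Under members these 3 rest on 11, 18 and 7 promoters. A match is a run of letters, and distal members, which are most of the set, had no sequence to search here.

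Among promoter members, Zfp804a had percentiles of 50.9 and 50.5 (controls) against 74.1 and 76.6 (mutants). Its replicates agreed within 3 points, and its common gap was 19.9. Rora had 31.4 and 23.5 against 53.9 and 60.9, with a common gap of 17.9. Slit2 had 55.9 and 59.2 against 78.1 and 73.1, and its common gap of 4.19 missed the margin. Hairpins of 4 microRNA genes overlapped members, Mir713, Mir5126, Mir1900 and Mir193a, of 84 that overlapped shared regions. This share, 4.76%, is near the 4.22% of all shared regions. Of these the region at Mir713 passed on the common scale, with a gap of 11.6.

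The gene lists were read next. Lists for palate patterning, signalling, matrix and the other cell types a palate sort could hold covered 466 genes of the table. Regions were assigned to the nearest protein-coding gene within 100 kb. These genes had 717 shared regions, of which 35 were members (4.88%) against 4.22% of all shared regions. Members that passed on the common scale too were 12 of these 717 regions, beside 300 of all 18904 shared regions. In 13 of the 26 lists there was no member. The median difference of mean percentiles, mutants minus controls, was 3.29 over all shared regions and −0.0225 on the common scale.

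**Figure D5:**
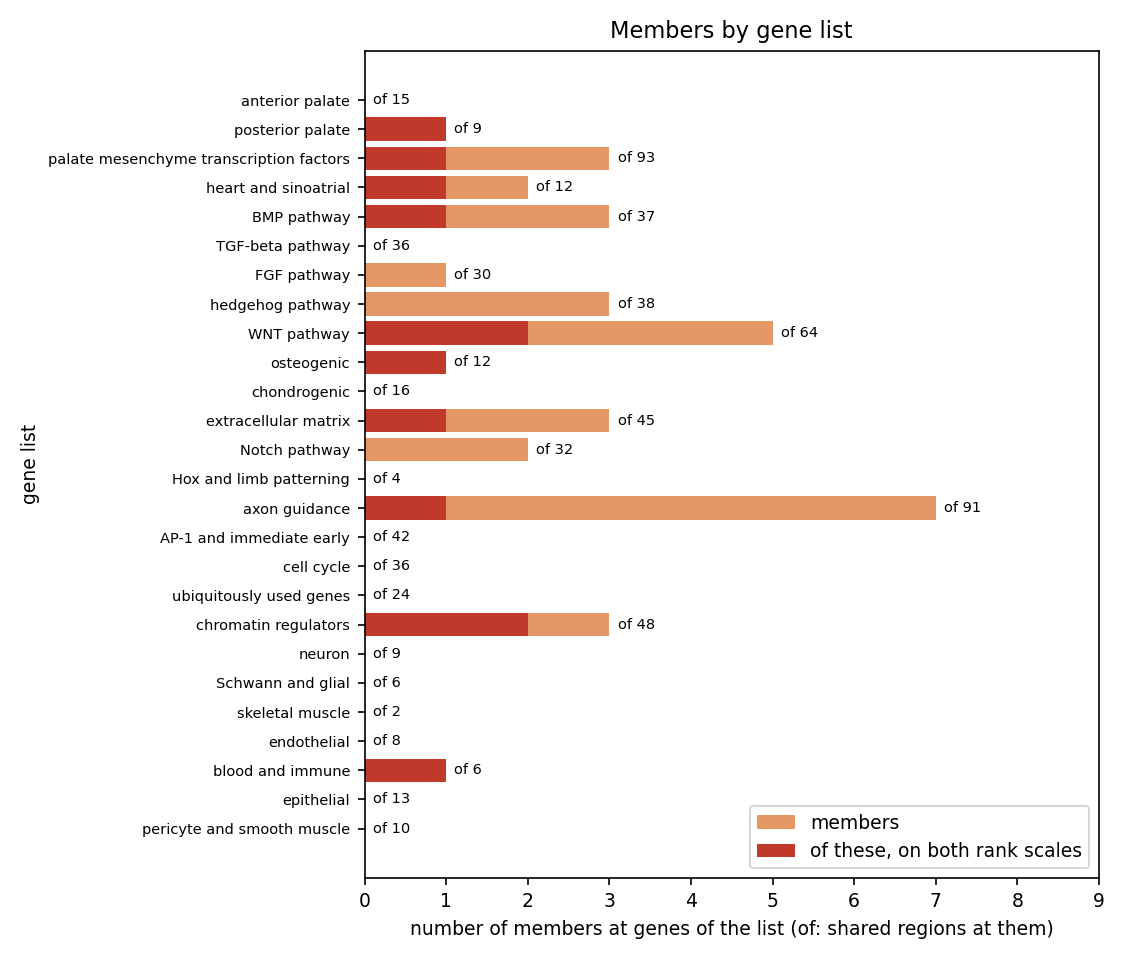
Number of members at the genes of each list (orange) and the number of these that pass on both rank scales (red), with the number of shared regions of the list beside each bar. The axon guidance list has the most members, 7 of 91 shared regions.

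Palate patterning genes are given first. Anterior palate genes, the territory of Shox2, had 0 of 15 shared regions, with a median difference of 3.54 points (0.528 on the common scale). Shox2 itself (chromosome 3, 66971723 to 66981771) had 3 regions in at least 1 library and 0 in all 4, so none could be a member. Posterior palate genes had 1 of 9, inside Col23a1, a transmembrane collagen gene (chromosome 11, 51539355 to 51540098). Its percentiles were 28.4 and 8.73 (controls) against 53.0 and 55.3 (mutants), with a common gap of 21.5.

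The palate mesenchyme transcription factors had 3 of 93 (3.23%). A region 16.9 kb from Six2, a homeobox gene (chromosome 17, 85645161 to 85646595), had percentiles of 37.3 and 22.7 against 49.1 and 56.7 and passed on the common scale with 12.6. The members inside Nfix and Nfia, genes of the nuclear factor I family, had gaps of 20.03 and 13.8 and common gaps of 8.62 and 4.999.

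The heart and sinoatrial list had 2 of 12. One lay at Nkx2-5 (chromosome 17, 26838593 to 26840423), over the lower end of the gene. Nkx2-5 is on the minus strand and the RefSeq table used places its start at 26841565, so the region covered the 3′ end and not the start. Its list percentiles were 25.6 and 35.4 (controls) against 60.5 and 60.5 (mutants). On the common scale they were 4.58 and 23.5 against 39.5 and 34.6. The controls differed from each other by more than the common gap of 11.2. Deletion of the floxed allele in the sorted cells was not measured, so its part in these values was not tested. The other member was inside Kcnj3, a potassium channel gene (chromosome 2, 55435538 to 55437862), with a gap of 10.7 and a common gap of −2.58.

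BMP pathway genes had 3 members of 37 shared regions (8.11%). The member at Smad9 (chromosome 3, 54754963 to 54756517) covered the promoter shown above. Its percentiles were 57.2 and 20.2 (controls) against 67.8 and 70.3 (mutants). Control 2 stood far below control 1, and the common gap was 17.4. Id2, an inhibitor of basic helix-loop-helix factors, had 71.3 and 67.7 against 84.5 and 81.7 (chromosome 12, 25095734 to 25096531). Its common gap of 8.46 missed the margin. A region 6.46 kb from Id1 had a gap of 10.9 and a common gap of −0.500. The TGF-beta pathway had 0 of 36, and the FGF pathway 1 of 30, inside Fgfr2, with a gap of 13.5 and a common gap of −1.86.

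Hedgehog pathway genes had 3 of 38. A region 36.7 kb from Gli3, a transcription factor that relays hedgehog signals (chromosome 13, 15426487 to 15427526), had percentiles of 31.7 and 26.9 (controls) against 51.8 and 53.4 (mutants). Its common gap was 9.53. A second inside Gli3 had a gap of 12.8 (common 1.22), and one 54.03 kb from Ptch1, the hedgehog receptor gene, had 10.5 (common 9.99). None of these 3 passed on the common scale, and 1 other region of the list lay higher in both controls. WNT pathway genes had 5 of 64, and 2 passed on the common scale, inside Lgr4 and 9.80 kb from Fzd1, a WNT receptor gene. Inside Lgr4, a receptor gene for R-spondins (chromosome 2, 109979400 to 109980185), percentiles were 34.4 and 6.17 against 62.5 and 49.7, with a common gap of 11.4. Members inside Gpc6 and Lgr5 had gaps of 13.4 and 12.7 and common gaps of 1.62 and −3.34. The Notch pathway had 2 of 32, both inside Jag1, a Notch ligand gene, with gaps of 22.5 and 11.2 and common gaps of 5.88 and −1.90. One region of the Notch list lay higher in both controls.

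Bone, cartilage and matrix genes had members in 2 of 3 lists. Osteogenic genes had 1 of 12, inside Phex, a gene of mineral metabolism (chromosome X, 157163995 to 157164812), with percentiles of 28.4 and 13.8 against 52.8 and 59.0 and a common gap of 23.1. Chondrogenic genes had 0 of 16. Extracellular matrix genes had 3 of 45 (6.67%). A region 22.7 kb from Col6a3 passed on the common scale with 10.8, while Mmp14 (common gap −1.25) and Lox, a collagen cross-linking enzyme gene (common gap 0.370), did not. The Mmp14 percentiles were 19.4 and 22.7 against 49.4 and 38.8.

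Axon guidance genes had 7 members of 91 (7.69%). A region inside Sema3a, a semaphorin gene (chromosome 5, 13526837 to 13527709), had percentiles of 38.2 and 7.26 (controls) against 57.4 and 72.4 (mutants), with a common gap of 23.1. It was the only one of the 7 to pass on the common scale, and 1 region of the list lay higher in both controls. Members inside Robo2 and at the end of Robo1, both Slit receptor genes, had gaps of 18.8 and 14.3 and common gaps of 6.82 and 6.36. Chromatin regulators had 3 of 48. One lay 38.5 kb from Chd7, a remodeller gene (chromosome 4, 8906630 to 8907360), with a common gap of 10.4, and one 21.2 kb from Rad21, a cohesin gene, with 11.9. The other, 76.8 kb from Chd7, had a common gap of 2.25. In this list too, 1 region lay higher in both controls.

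Further lists held no members. Immediate early genes had 0 of 42, cell cycle genes 0 of 36, ubiquitously used genes 0 of 24 and Hox and limb patterning genes 0 of 4. Shared regions at immediate early, cell cycle and ubiquitous genes had median mean percentiles of 75.2, 74.7 and 78.2. Such ranks lie above the range of 20 to 70 that held 94.4% of members.

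Markers of other cell types had 1 member among 54 shared regions. It lay inside Ptprc, which encodes the leukocyte protein CD45 (chromosome 1, 138135984 to 138137002), with percentiles of 58.8 and 59.6 (controls) against 75.9 and 79.996 (mutants). Its common gap was 11.7. The blood and immune list had 6 shared regions at 5 of its 10 genes, 1 of them higher in both controls, and a median common difference of 5.51. The part of blood cells in the members was not tested. Neuron (0 of 9), Schwann and glial (0 of 6), skeletal muscle (0 of 2), endothelial (0 of 8), epithelial (0 of 13) and pericyte and smooth muscle markers (0 of 10) held no member. The median common differences of these 6 lists ran from −5.04 to −0.0278.

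Gaps ran on without a break at the margin. The 3 regions just inside the margin lay 11.8 kb from Lekr1, at the end of Btbd1 and inside Mmp17, with gaps of 10.007, 10.005 and 10.001. The 3 just outside lay 232.9 kb from Nkx6-1, at the end of Mocos and inside Stk3, with 9.995, 9.987 and 9.975. On the common scale the region near Nkx6-1, not a member, had a gap of 16.3, while the 3 just inside had 4.33, 8.66 and 7.69.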

How the data were processed

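Each library came as a table of peaks that the authors deposited with 10 unnamed columns in narrowPeak order. Coordinates are mm10, according to the submitters' processing notes. Aligner, transposase offset and peak caller: not given in the sources used here. Peak names point to a merged alignment and skip numbers, so some called peaks had been removed. The deposited score was 10 times the deposited −log10 p-value, cut to a whole number, in 99.987% to 100% of peaks. The deposited fold enrichment and −log10 q-value served for alternatives. All are the authors' values for single peaks, and the depth behind them is unknown.

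Peaks were merged on chromosomes 1 to 19 and X, ranked (ties at their mean rank) and compared in Python 3.11.15 with pandas 2.3.3 and scipy 1.17.1. The code was tested on simulated data. Regions were placed by midpoint against 21627 protein-coding genes of GRCm38.p6, which give gene ends without exons. Promoter sequences came from RefSeq, and no genome was used here.

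The members and lists were chosen with earlier results of these data known. Named regions were the 15 largest gaps, up to 3 members per list, Shox2 and Nkx2-5, genes with at least 3 members, and the 3 regions on each side of the margin. Comparison with regions of like strength, sums over both directions and crossed pairs were added after the data were seen. Replicate numbers came from the titles. They were not taken as pairs.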

Additional observations from a re-analysis of the deposited data

How the results depend on the processing

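Read depth is unknown and limits every rank. The 797 regions were 901 by fold enrichment and 791 by q, with 519 and 788 of the members among them. They were 1865 and 122 at margins of 5 and 20, 435 on common percentiles, 376 with 22959 top peaks per library (262 members among them) and 505 in the upper 50% of each list (92 members). A margin within same-numbered pairs, the replicate block, gave 1223 regions, and crossed pairs 1500. Deviations of same-numbered libraries from their group means correlated at 0.0273 over regions, and those of crossed numbers at −0.0273. With 2 libraries per group these 2 values mirror each other. They cannot tell whether same-numbered libraries were prepared together, which the labels do not state. With 1 library left out the count ran from 1561 to 5777. The ratio to the other classes, 2.12, was 1.40 on common percentiles and 1.33 with equal peak numbers. It needs 4 libraries, so it was not computed with 1 left out. The share within 1 kb of a gene end, 21.1%, was 31.3% by fold enrichment, 29.0% and 13.1% at margins of 5 and 20 and 48.3% in the upper 50%. It was 19.3% to 34.4% with 1 library left out, and 16.7% and 24.1% for ends within 500 and 2000 bp (45.0% and 55.0% of shared regions). The upper 50% had its own base of 10841 shared regions. For it, and with 1 library left out, the share over all shared regions was not computed.

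Gaps of named regions gave 603 recomputed values. Leaving out a library, or using the replicate block, drops comparisons from the gap, so those settings say little about a change of sign. Of the 603 gaps, 15 changed sign, namely 8 of 56 on common percentiles, 6 of 38 with equal peak numbers and 1 of 56 by fold enrichment. On common percentiles these were −1.25 at Mmp14, −2.02 at Dlg2 (92180472), −1.86 at Fgfr2, −3.34 at Lgr5, −1.90 at Jag1 (137114019), −0.500 at Id1, −2.58 at Kcnj3 and −0.204 at Stk3. With equal peak numbers they were −4.69 at Dlg2, −6.27 at Fgfr2, −3.92 at Lgr5, −1.74 at Jag1, −1.10 at Id1 and −0.525 at Stk3. By fold enrichment Dlg2 (91608296) gave −0.103. The cause was not tested.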
